A study of Mus musculus with 3 samples.

Results

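Lef1, Bach2, Satb1, Igfbp4 and Il6ra are transcripts that naive T cells carry and that many T cells lose after they meet antigen. They were followed here in 3 populations of mouse CD8 T cells. All probe sets whose platform annotation gives the symbol of a named gene alone were taken, which found 18 of the 45101 probe sets of the array: 2 for Lef1, 3 for Bach2, 5 for Satb1, 6 for Igfbp4 and 2 for Il6ra. Tcf7, which was also on the list of 6 symbols, was not analysed here because no probe set carries that symbol in the annotation used.

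The samples were CD8 T cells of the MLN (mesenteric lymph node), with 1 array for each of 3 groups. The samples named VILLIN-HA/CL4-TCR or Villin-HA + CL4-TCR combine T cells carrying the CL4 T cell receptor with the antigen this receptor recognises, influenza hemagglutinin (HA), made under the promoter of villin, a gene of gut epithelial cells. The CL4-TCR sample has the receptor transgene, which all 3 groups share, without that antigen. The submitters describe an unmodified, an activated and a regulatory CD8 population, the last 2 formed in the animal, but nothing in the labels ties either name to one HA sample. The sources used here do not give the strain, age and number of mice, any pooling or the sorting gates.

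Lef1 encodes a DNA-binding protein with a high mobility group box. Together with its relative TCF-1 it recruits beta-catenin or Groucho-type (Tle) corepressors to target genes, and it supports thymocyte development and the naive and memory states of CD8 T cells. Satb1 encodes a nuclear protein that anchors chromatin loops and is abundant in thymocytes and T cells. Bach2 encodes a repressor of the leucine zipper type that pairs with small Maf proteins, competes with AP-1 factors for DNA and restrains effector genes such as Prdm1. Igfbp4 encodes a secreted protein that binds insulin-like growth factors, and Il6ra encodes the chain of the interleukin 6 receptor that binds the cytokine, while signalling runs through gp130, the product of Il6st.

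Lef1 and Satb1 had almost the same differences across the 3 arrays by their brightest probe sets, so the sequences before their outermost annotated starts are shown side by side. They are from RefSeq, build GRCm38.p6, for Lef1 at chr3:131110047-131110296 on the plus strand and for Satb1 at chr17:51833291-51833540 on the minus strand, 250 bases each, read 5′ to 3′ in the direction of the gene. Capitals mark CG pairs, the sites of DNA methylation in mammals.
Lef1: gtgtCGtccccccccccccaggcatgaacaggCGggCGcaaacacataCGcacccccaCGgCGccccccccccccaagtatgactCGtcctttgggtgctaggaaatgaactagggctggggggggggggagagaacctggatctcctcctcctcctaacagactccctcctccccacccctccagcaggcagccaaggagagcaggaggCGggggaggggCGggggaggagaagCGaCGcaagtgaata
Satb1: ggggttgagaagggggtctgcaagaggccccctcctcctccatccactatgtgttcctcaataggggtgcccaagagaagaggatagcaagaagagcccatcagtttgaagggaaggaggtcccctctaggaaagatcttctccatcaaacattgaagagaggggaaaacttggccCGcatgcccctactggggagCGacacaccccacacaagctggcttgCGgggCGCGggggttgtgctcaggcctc

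The Lef1 stretch held 11 CG pairs and was 66.4% G or C, the Satb1 stretch 5 CG pairs and 58.0%, and the median over the 32851 promoter windows of the RefSeq table was 6 CG pairs. A search of the 12 windows of 300 bases that the table gives for the 5 genes, on both strands, found no match to a TCF/LEF site (CTTTGAT or CTTTGAA), an AP-1 or Bach site (TGANTCA) or a forkhead site (GTAAACA). Of all windows, 8.65%, 7.81% and 3.65% held such letters. The absence of a match says only that these letters do not occur in those windows.

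The values are MAS5 signals, a linear summary of the probes of a probe set, and each array is scaled to the same trimmed mean of 150. Signals of different probe sets are not comparable with each other, so levels are compared only between arrays. The median of all values, 31.7, served as a floor, and a probe set was measured in a comparison where at least 1 of the 2 arrays lay above it. A difference is counted from 2-fold, a log2 difference of 1 in size. Groups of 1 array allow no test and no p-value, every difference is one between arrays, and the disagreement among probe sets of a gene is the only error available. Fewer cells of a type and less RNA per cell cannot be told apart in such samples.

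The CD8 T cell label fitted the marker transcripts: all 9 CD8 T cell genes found lay above the floor on the 3 arrays, and Cd4 was at 5.9 for VILLIN-HA/CL4-TCR, 9.4 for Villin-HA + CL4-TCR and 9.1 for CL4-TCR. The Villin-HA + CL4-TCR sample stood apart in other ways. Of 15 skeletal muscle genes, 4, 15 and 2 lay above the floor in the same order of samples. The ratio of 3′ to 5′ signal is a sign of RNA or labelling quality and is worse when high. It was 46.2, 3.35 and 18.4 for Gapdh, and 2.46, 1.8 and 1.98 for beta-actin. By both genes it was lowest in the Villin-HA + CL4-TCR sample and highest in the VILLIN-HA/CL4-TCR sample. The part of these ratios in the differences below was not tested. Xist, a transcript of female cells, had signals of 2.5, 1339 and 5442.5. Eif2s3y, a gene of the Y chromosome, had 1496, 746.9 and 13.4. Only Eif2s3y lay above the floor in the VILLIN-HA/CL4-TCR sample, and only Xist in the CL4-TCR sample. Both did in the Villin-HA + CL4-TCR sample, which thus held transcripts of male and of female cells. The origin of this mixture was not tested. The sex of the cells and the group therefore cannot be told apart. The 5 genes lie on autosomes in the RefSeq table.

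Each of the 5 genes was lower than in the CL4-TCR sample on at least 1 of the arrays with HA by its brightest probe set, but not all on the same array. Igfbp4 was far lower on both, Lef1 was lower on both to differing degrees, Satb1 was lower by less, Bach2 was lower in the Villin-HA + CL4-TCR sample by its brighter probe sets and not on the other, and Il6ra was near the floor in the VILLIN-HA/CL4-TCR sample. Of 17 measured probe sets, 8 were counted as lower in the VILLIN-HA/CL4-TCR sample than in the CL4-TCR sample and none as higher, where 6.88% of all measured probe sets were counted as lower and 5.97% as higher. Likewise, 11 of 17 were lower in the Villin-HA + CL4-TCR sample and none higher, where 10.8% of all were lower and 10.7% higher. The median log2 difference of the 17 was -0.95 in the VILLIN-HA/CL4-TCR and -1.45 in the Villin-HA + CL4-TCR sample, and over all measured probe sets it was -0.08 and 0.02. These 2 comparisons share the CL4-TCR sample, and several probe sets read the same transcript, so the counts are not independent of each other.

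With a single probe set for each gene, the brightest by its mean over the arrays, 2 of the 5 genes were counted as lower in the VILLIN-HA/CL4-TCR sample, Igfbp4 and Il6ra, where 6.63% of all measured genes were lower. All but Il6ra, 4 of the 5, were lower in the Villin-HA + CL4-TCR sample, where 9.53% of all measured genes were lower. No member gene was higher on either array than in the CL4-TCR sample by this count, where 7.43% of all measured genes were higher in the VILLIN-HA/CL4-TCR and 11.9% in the Villin-HA + CL4-TCR sample.

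**Figure D1:**
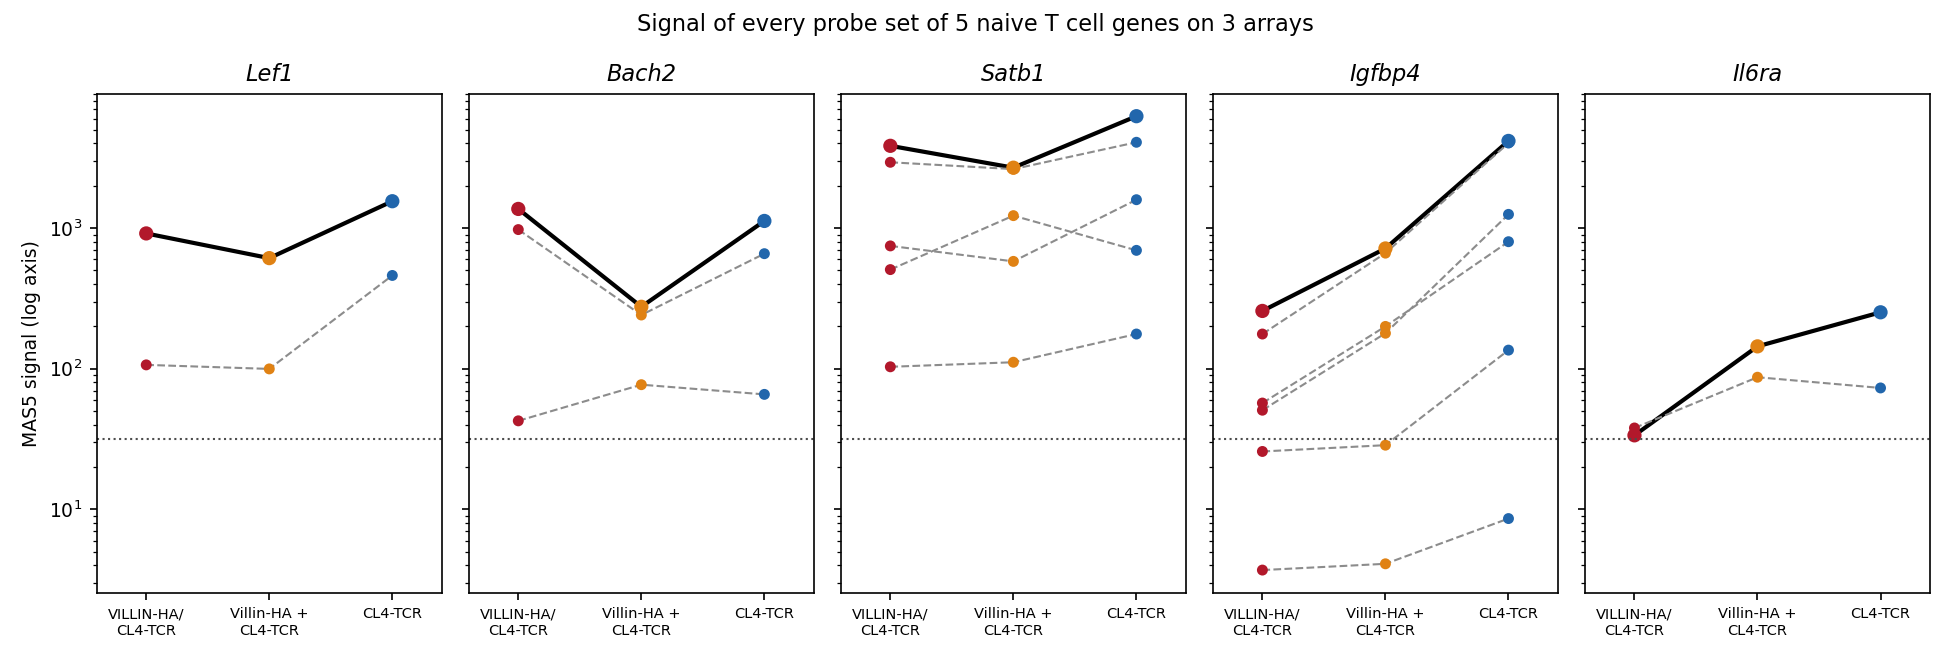
MAS5 signal (log axis) of all 18 probe sets of Lef1, Bach2, Satb1, Igfbp4 and Il6ra on the VILLIN-HA/CL4-TCR, Villin-HA + CL4-TCR and CL4-TCR arrays; each point is 1 array, lines join the values of a probe set, the solid line is the brightest probe set of the gene and dashed lines the others, and the dotted line is the floor of 31.7. Igfbp4 is highest in the CL4-TCR sample in every probe set, the 2 brighter Bach2 probe sets are lowest in the Villin-HA + CL4-TCR sample, and both Il6ra probe sets come down to just above the floor in the VILLIN-HA/CL4-TCR sample.

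Lef1 was lower on both HA arrays by both of its probe sets. The brighter probe set, 1454734_at, had a signal of 916.4 in the VILLIN-HA/CL4-TCR sample and 611.6 in the Villin-HA + CL4-TCR sample, against 1552.8 in the CL4-TCR sample. The other, 1421299_a_at, had 106.5 and 99.7, against 460.5. The CL4-TCR array was thus highest in both, and the HA arrays lay close together in the dimmer one. The brighter probe set gave log2 differences of -0.76 (1.69-fold lower, short of 2-fold) in the VILLIN-HA/CL4-TCR and -1.34 (2.54-fold lower) in the Villin-HA + CL4-TCR sample. The dimmer one gave -2.11 and -2.21, or 4.32-fold and 4.62-fold lower. The probe sets therefore place Lef1 on both sides of 2-fold in the VILLIN-HA/CL4-TCR sample, with a mean of -1.44 ± 0.96 (SD, 2 probe sets), while in the Villin-HA + CL4-TCR sample both pass it, with a mean of -1.78 ± 0.61 (SD, 2 probe sets). Between the HA arrays, VILLIN-HA/CL4-TCR less Villin-HA + CL4-TCR, Lef1 differed by 0.58 and 0.10, less than 2-fold in either probe set.

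Satb1, the chromatin organiser, was also lower, mostly by less than 2-fold. Its brightest probe set, 1416007_at, had 3846.5 in the VILLIN-HA/CL4-TCR and 2688.9 in the Villin-HA + CL4-TCR sample, against 6247.9 in the CL4-TCR sample. The VILLIN-HA/CL4-TCR signal was 61.6% and the Villin-HA + CL4-TCR signal 43.0% of that in the CL4-TCR sample. All 5 probe sets were lower in the VILLIN-HA/CL4-TCR sample, from -1.09 to -0.45 on the log2 scale, with a mean of -0.70 ± 0.26 (SD, 5 probe sets), and 1 of them, 1436182_at, passed 2-fold with 747 against 1591.9. That difference was thus small and shared by every probe set.

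The Satb1 probe sets disagreed in the Villin-HA + CL4-TCR sample. The difference was -1.22 for 1416007_at and -1.46 for 1436182_at, both past 2-fold, and -0.63 and -0.67 for 1416008_at and 1439315_at. The remaining one, 1439449_at, went the other way, with 506.9 in the VILLIN-HA/CL4-TCR and 1226.3 in the Villin-HA + CL4-TCR sample, against 694.5 in the CL4-TCR sample, a difference of 0.82 in the Villin-HA + CL4-TCR sample. The mean of the 5 was -0.63 ± 0.88 (SD), so the lower Satb1 signal on that array was smaller than the spread of its probe sets. Between the HA arrays the 5 probe sets ranged from -1.27 to 0.52, with no shared direction.

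Bach2 was the member that was higher in VILLIN-HA/CL4-TCR than in Villin-HA + CL4-TCR by over 2-fold, in its brighter probe sets. The brightest, 1437667_a_at, had 1368.6 in the VILLIN-HA/CL4-TCR sample and 275.7 in the Villin-HA + CL4-TCR sample, against 1124.1 in the CL4-TCR sample. The next, 1436515_at, had 976 and 241, against 657.8. By both, Bach2 was slightly higher in the VILLIN-HA/CL4-TCR sample than in the CL4-TCR sample, by 0.28 and 0.57 on the log2 scale and short of 2-fold. In the Villin-HA + CL4-TCR sample it was 4.08-fold and 2.73-fold lower than in the CL4-TCR sample. Set directly against each other, the VILLIN-HA/CL4-TCR sample had 4.96-fold and 4.05-fold the Bach2 signal of the Villin-HA + CL4-TCR sample, and the first of these ranked 21 from the highest among 9683 genes above the floor on both.

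The dimmest Bach2 probe set, 1445460_at, did not share this pattern. It had 42.6 in the VILLIN-HA/CL4-TCR and 77 in the Villin-HA + CL4-TCR sample, against 65.7 in the CL4-TCR sample, all near the floor, and its 3 differences, from -0.85 to 0.23, were short of 2-fold. Over the 3 probe sets, the difference VILLIN-HA/CL4-TCR less Villin-HA + CL4-TCR was 1.16 ± 1.75 (SD), and Villin-HA + CL4-TCR minus CL4-TCR was -1.08 ± 1.17 (SD).

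Igfbp4 had the largest differences of the set. Its brightest probe set, 1437405_a_at, had a signal of 257.6 in the VILLIN-HA/CL4-TCR and 716.5 in the Villin-HA + CL4-TCR sample, against 4167.1 in the CL4-TCR sample. It was 16.2-fold lower in the VILLIN-HA/CL4-TCR sample, the lowest log2 difference of 9353 genes above the floor on both arrays, and 5.82-fold lower in the Villin-HA + CL4-TCR sample, rank 34 from the lowest of 9497. The order of the arrays, VILLIN-HA/CL4-TCR below Villin-HA + CL4-TCR below CL4-TCR, was the same in the 4 probe sets above the floor on all of them, and each step passed 2-fold. With the mean of all 6 probe sets, in which those at or near the floor count too, the VILLIN-HA/CL4-TCR difference was -3.18 in place of -4.02.

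The differences of Igfbp4 were many times the spread of its probe sets. The 4 above the floor on all arrays gave a mean of -4.24 ± 0.39 (SD) in the VILLIN-HA/CL4-TCR sample and -2.49 ± 0.34 (SD) in the Villin-HA + CL4-TCR sample, both relative to CL4-TCR. Between the HA arrays they gave -1.75 ± 0.19 (SD), VILLIN-HA/CL4-TCR being the lower. Another probe set, 1421992_a_at, had 25.8 and 28.6 against 135.6 and was at least 4.28-fold lower on both HA arrays, and the remaining one lay below the floor throughout. These 6 probe sets were designed from 3 sequence records, so they are not 6 independent measurements.

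Il6ra was lower in the VILLIN-HA/CL4-TCR sample and less so, or not, on the other. The brighter probe set, 1452416_at, had 33.6 in the VILLIN-HA/CL4-TCR and 144.2 in the Villin-HA + CL4-TCR sample, against 251.9 in the CL4-TCR sample. The other, 1422270_a_at, had 37.9 and 87, against 73. Both values in the VILLIN-HA/CL4-TCR sample lay just above the floor of 31.7. The brighter probe set was 7.50-fold lower there than in the CL4-TCR sample, rank 8 from the lowest of 9353 genes, and the dimmer one 1.93-fold lower, short of 2-fold. Because the VILLIN-HA/CL4-TCR signal was so close to the floor, the size of the first is uncertain: the log2 difference of -2.91 was -1.88 with a higher floor and -1.93 with the mean of both probe sets. In the Villin-HA + CL4-TCR sample the differences from CL4-TCR were -0.80 and 0.25, on either side of 0, and the first of them was -1.01, past 2-fold, with the arrays scaled to the same median. VILLIN-HA/CL4-TCR less Villin-HA + CL4-TCR was -2.10 and -1.20, past 2-fold in both probe sets.

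**Figure D2:**
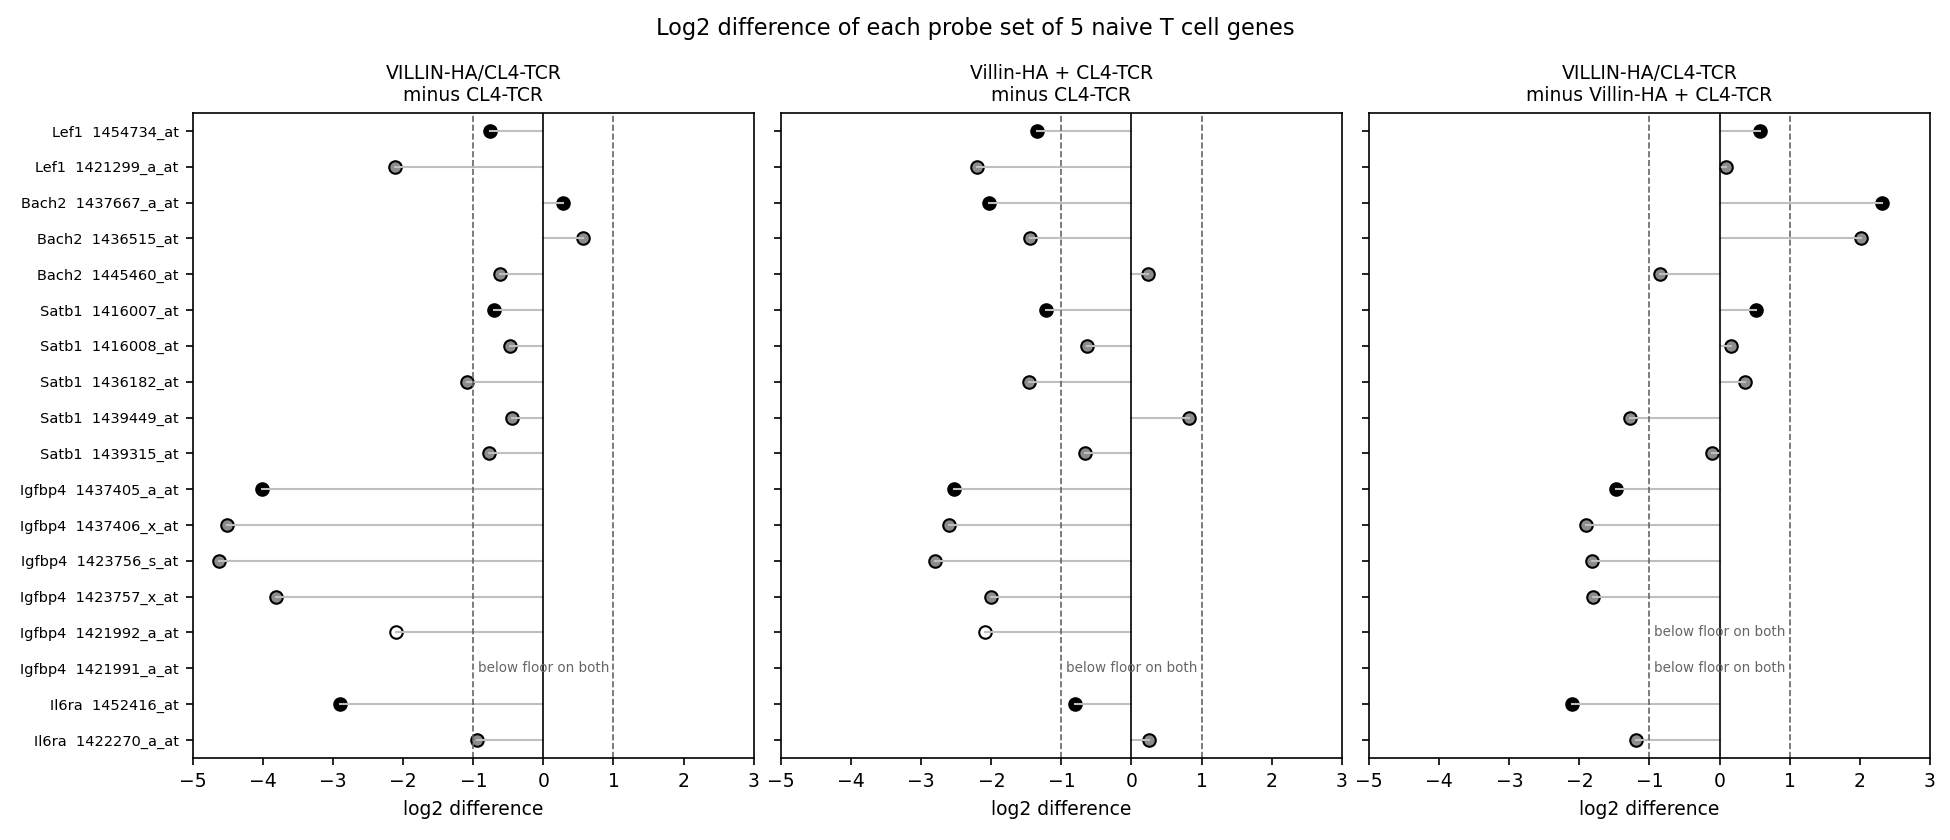
Log2 difference of each probe set in the 3 comparisons named above the panels; black points are the brightest probe set of a gene, grey points the others, open points lower bounds in size because an array lay at the floor, and dashed lines mark 2-fold. Igfbp4 points lie left of the 2-fold line in every comparison in which they were measured, while Bach2 points of the brighter probe sets cross from the left in the middle panel to the right in the last.

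Between the HA arrays, 2 member genes were counted as lower on VILLIN-HA/CL4-TCR than on Villin-HA + CL4-TCR, Igfbp4 and Il6ra, where 8.95% of all measured genes were lower, and 1 was higher, Bach2, where 6.14% of all were higher. Over 16 measured probe sets, 7 were lower and 2 higher, against 8.98% and 6.74% of all measured probe sets. Igfbp4 had the lowest difference from CL4-TCR of the 5 genes on both HA arrays, and Igfbp4 and Il6ra had their lowest signal on VILLIN-HA/CL4-TCR, Bach2 on Villin-HA + CL4-TCR.

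Transcripts of other cell types differed between the same samples. The summed signal of 15 skeletal muscle markers was 268.8 in the VILLIN-HA/CL4-TCR and 6976.7 in the Villin-HA + CL4-TCR sample, against 282.2 in the CL4-TCR sample. That of 12 stromal and endothelial markers was 177.7 and 1237.1, against 171.1, with 1, 8 and 1 genes above the floor. That of 8 neutrophil markers was 159.1 and 1870.6, against 155.3, with 1, 7 and 0 genes above the floor. Myeloid and dendritic cell markers, 13 genes, summed to 2265.1 and 2320, against 798.3, with 10, 10 and 6 genes above the floor. The HA arrays reached similar sums through different genes: the macrophage genes Lyz2, with 817.3 and 312.2, and Csf1r, with 384.1 and 125, were higher in VILLIN-HA/CL4-TCR, and Itgax, which encodes CD11c, with 43.5 and 430.7, and Cst3, with 495.9 and 914.7, were lower. Igfbp4, a product of stromal cells too, and Il6ra, which myeloid cells also express, were lower in the VILLIN-HA/CL4-TCR than in the Villin-HA + CL4-TCR sample, and the part of other cells in this was not tested. Summed B cell markers, whose cells also carry Bach2, were 505.1 and 449.2, against 341.7, with 4, 3 and 5 of 8 genes above the floor, and the part of B cells in the Bach2 values was not tested. Cd79b had 199.1 and 233.1, against 110.5, and Ms4a1, which encodes CD20, 147.2 and 52.5, against 55.8. Cd79a had 13.1 and 8.7, against 31.4, below the floor on all arrays. The summed CD8 T cell markers were 23374 and 26619.2, against 26338.4, of which Ptprc, a gene of all leukocytes, gave 11458.9 and 11082.2, against 11134.3. Cd8a had 2892.7 and 3149.3, against 2714, while the T cell genes Lat, with 653.2 and 1690.1, against 2432.1, and Cd2, with 714.1 and 1257.2, against 2308.3, were over 2-fold lower in VILLIN-HA/CL4-TCR than in CL4-TCR.

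**Figure D3:**
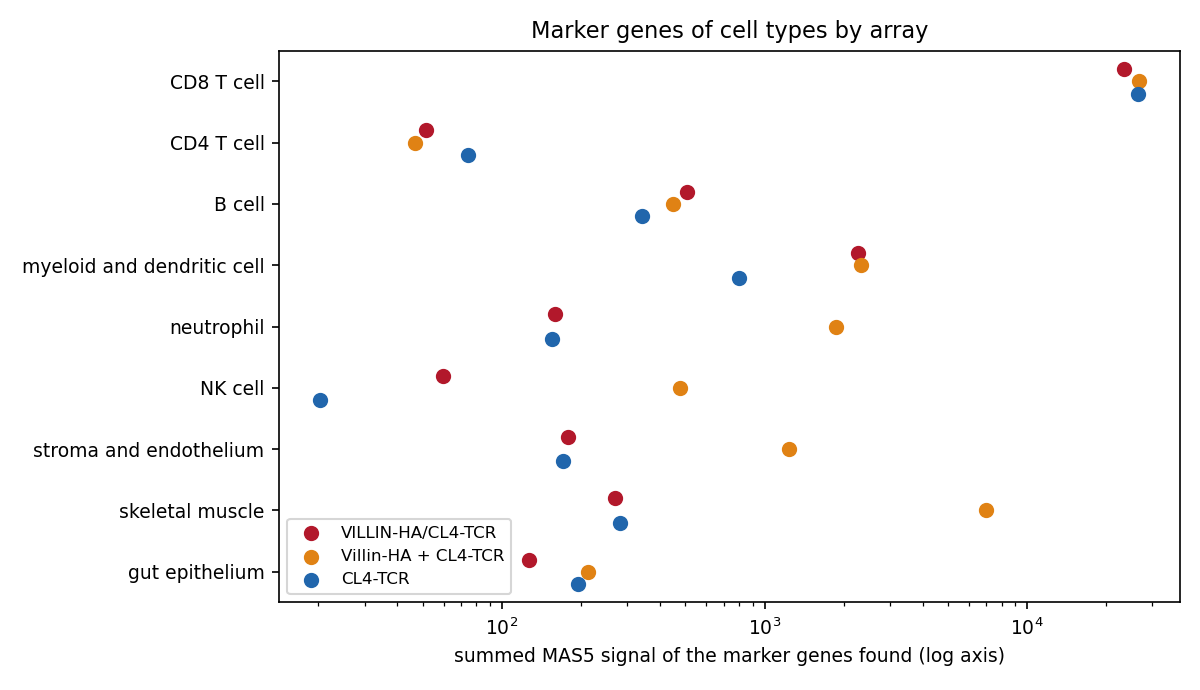
Summed MAS5 signal (log axis) of marker genes of 9 cell types; each point is 1 array, with VILLIN-HA/CL4-TCR above Villin-HA + CL4-TCR and CL4-TCR in each row. Skeletal muscle, stroma and neutrophil sums are highest in the Villin-HA + CL4-TCR sample, and CD8 T cell sums lie between 23374 and 26619.2.

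Relative to the CL4-TCR sample, other naive and recirculating genes went mostly the same way as the members. The list was chosen with earlier results of these data known, so this likeness is no independent evidence. Of 30 such names 27 were found and measured. In the VILLIN-HA/CL4-TCR sample 14 were lower and 2 higher than in the CL4-TCR sample, with a median of -1.20 against -0.04 over all measured genes. Of all measured genes, 6.63% were lower there and 7.43% higher. Klf2, a factor that keeps T cells circulating, had 686.2 against 3906, a log2 difference of -2.51. Il7r, the interleukin 7 receptor chain that sustains naive cells, had 1358.9 against 5515.3 (-2.02), S1pr1, the receptor that guides T cells out of lymph nodes, 102.6 against 338.4 (-1.72), and Ccr7, which guides them in, 689.3 against 1839.4 (-1.42). Sidt1 (-2.73) and Cd55, a membrane inhibitor of complement that was at least 8.66-fold lower, were the lowest, and Slfn5, of the Schlafen family, had -2.47. The measured probe sets of Slfn5 ranged from -2.47 to -0.40 in this sample. The 2 higher genes were Id3, an inhibitor of E proteins, with 2159.6 against 457.8 (2.24), and Myb, a factor of proliferating progenitors, with 1974 against 384.1 (2.36).

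In the Villin-HA + CL4-TCR sample 12 of the 27 were lower and 1 higher than in the CL4-TCR sample, with a median of -0.98 against 0.06 over all measured genes. Of all measured genes, 9.53% were lower in this sample and 11.9% higher. The lowest were Ramp1, part of the receptor for the neuropeptide CGRP, with 93.1 against 1757.9 (-4.24), Slfn5 (-2.58), Klf3 (-2.08) and Treml2 (-1.76). However, the measured probe sets of Ramp1 ranged from -4.24 to -1.08 and those of Slfn5 from -2.58 to -0.40. Those of Klf3 ranged from -2.09 to 0.24 and those of Treml2 from -1.76 to 0.12. Ccr7 had 2500.6 against 1839.4 (0.44), Il7r 3676.9 against 5515.3 (-0.58) and Klf2 2120.6 against 3906 (-0.88). These were short of 2-fold by the brightest probe sets, but the dimmer of the 2 Il7r probe sets passed it, at -1.25. S1pr1 had 162.7 against 338.4 (-1.06). Id3 was lower here, with 222.3 (-1.04), and Myb was the higher gene, with 825.1 (1.10).

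Set against each other, VILLIN-HA/CL4-TCR was lower than Villin-HA + CL4-TCR in 8 of 26 measured naive genes and higher in 4, with a median of -0.08 against -0.06 over all measured genes. Of all measured genes, 8.95% were lower and 6.14% higher in this comparison. Ccr7 (-1.86), Dapl1 (-1.85), Klf2 (-1.63) and Il7r (-1.44) were among the lower, the side on which Igfbp4 and Il6ra also lay. Ramp1 (3.54), Id3 (3.28), Rgcc (2.13) and Myb (1.26) were higher, the side of Bach2.

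**Figure D4:**
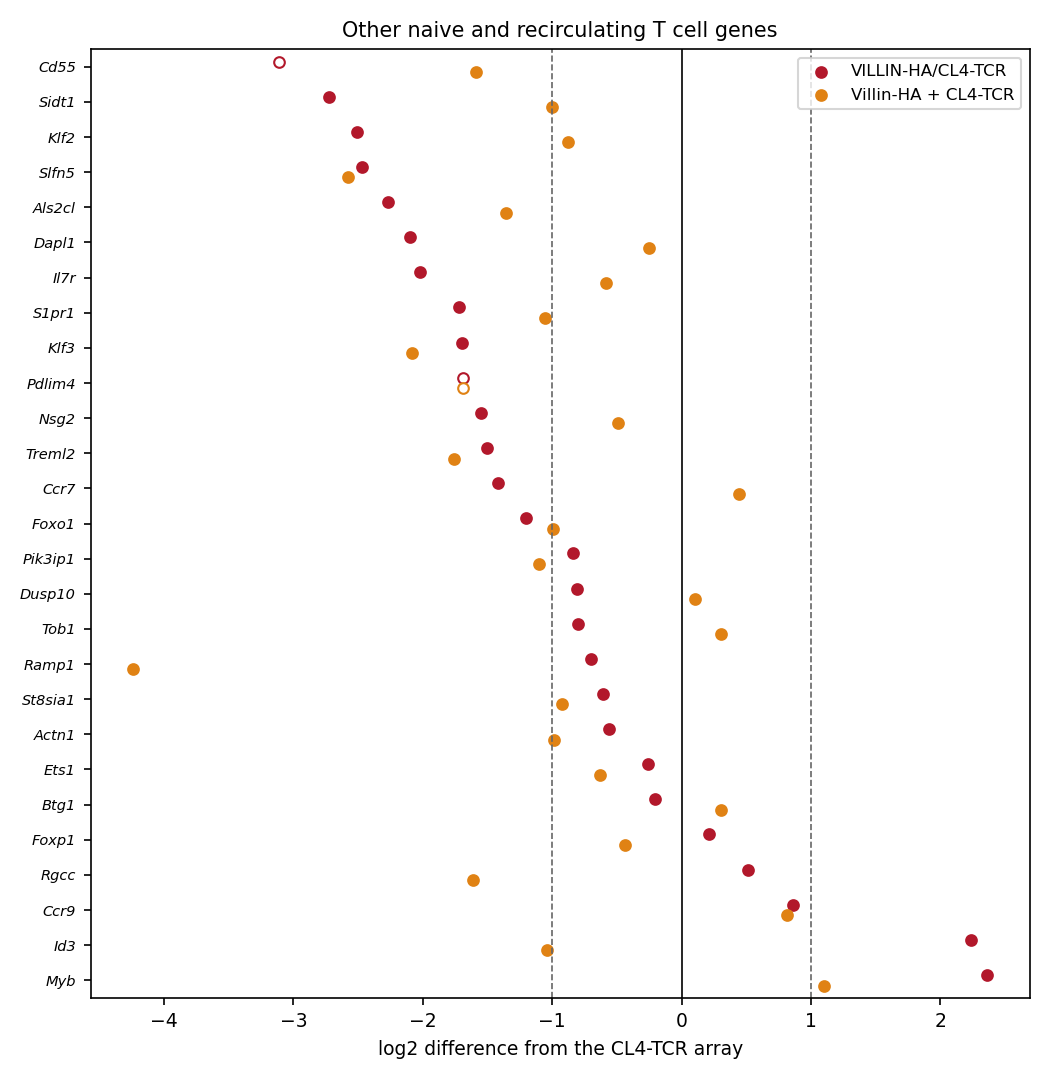
Log2 difference from the CL4-TCR sample of 27 other naive and recirculating genes, ordered by the value in the VILLIN-HA/CL4-TCR sample; red points are VILLIN-HA/CL4-TCR, orange points Villin-HA + CL4-TCR, open points lower bounds in size, and dashed lines 2-fold. Each gene is plotted by its brightest probe set. By these, Ccr7, Dapl1 and Il7r lie left of the 2-fold line only in red, Ramp1 and Rgcc only in orange.

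Of all measured genes, 6.63% were lower and 7.43% higher in the VILLIN-HA/CL4-TCR sample than in the CL4-TCR sample (median -0.04), and 9.53% lower and 11.9% higher in the Villin-HA + CL4-TCR sample (median 0.06). The gene lists that follow are to be read against these shares. Among partners of Lef1 in transcription and the Wnt pathway, in the VILLIN-HA/CL4-TCR sample 4 of 24 measured genes were lower than in the CL4-TCR sample and 2 higher (median -0.36), and in the Villin-HA + CL4-TCR sample 6 of 25 were lower and none higher (median -0.68). The share lower was above that of all genes in both, and nothing particular to the list was tested. Axin2, a target and brake of the pathway, had 105.6 in the VILLIN-HA/CL4-TCR and 66.6 in the Villin-HA + CL4-TCR sample, against 336.2 in the CL4-TCR sample, or -1.67 and -2.34, by its only measured probe set. Ctnnb1, which encodes beta-catenin, was within 2-fold by its brightest probe set, with 4688.7 and 2613.8, against 4119. Its measured probe sets ranged from -1.21 to -0.14 in the Villin-HA + CL4-TCR sample. Bcl9l, a beta-catenin cofactor, had 144 and 144.9, against 642.2, but its measured probe sets ranged from -2.16 to 0.02 and from -2.15 to 0.14.

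Genes of the Tle family, whose names alone do not show which act as corepressors, differed by array. Tle5 had 36.6 and 151, against 248.5, a log2 difference of -2.76 in the VILLIN-HA/CL4-TCR and -0.72 in the Villin-HA + CL4-TCR sample. Tle4 had 697.9 and 416.9, against 1098.7 (-0.65 and -1.40), and Dvl1, a carrier of the Wnt signal, 1635.4 and 875.1, against 2768.2 (-0.76 and -1.66). Tle1 was lower in the VILLIN-HA/CL4-TCR sample (-1.24), and Tle3 was within 2-fold on both by its brightest probe set (-0.16 and -0.68). In the Villin-HA + CL4-TCR sample the measured probe sets of Tle3 ranged from -1.28 to 0.26. Hdac1, a histone deacetylase, was among the higher in the VILLIN-HA/CL4-TCR sample, with 1730.1 against 779.8 in the CL4-TCR sample, and Tcf7l1, a relative of Lef1, was the other, with 71.8 against 33. Between the HA arrays, 2 of 25 were lower in VILLIN-HA/CL4-TCR than in Villin-HA + CL4-TCR, Tle5 (-2.04) and Btrc, and 1 was higher, Tcf7l1. These shares were near those of all measured genes, 8.95% lower and 6.14% higher. Btrc and Tcf7l1 each lay below the floor on 1 of these arrays, so their differences are bounds.

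Around Bach2, the Villin-HA + CL4-TCR sample, where Bach2 was low, had higher signals of some AP-1 genes and of Prdm1. Of 16 measured partners, relatives and repressed genes, 8 were higher there than in the CL4-TCR sample and 2 lower (median 0.88), while in the VILLIN-HA/CL4-TCR sample none of 11 was higher and 1 was lower (median -0.04). Jun, Prdm1, Maff and Nfil3, among those higher, lay above the floor only in the Villin-HA + CL4-TCR sample, as did Hmox1. They were measured only through that array and are not among the 11. These counts and medians, and the count between the HA arrays, therefore depend in part on the floor rule. Prdm1, which encodes the effector repressor Blimp-1, had 23.1 in the VILLIN-HA/CL4-TCR and 214.5 in the Villin-HA + CL4-TCR sample, against 28.7 in the CL4-TCR sample, the first and last below the floor. Jun had 22.4 and 450, against 27.9, and was at least 14.2-fold higher in Villin-HA + CL4-TCR. Junb had 103.2 and 798.9, against 79.7, Fosl2 45.2 and 230.3, against 48, and Batf, an AP-1 partner of activated T cells, 203.2 and 545.6, against 165.4. The measured probe sets of Fosl2 ranged from 0.48 to 2.26 in the Villin-HA + CL4-TCR sample. Jund, another AP-1 gene, was within 2-fold on both arrays, with 3437.4 and 2423.6, against 2062.5. Mafk, a small Maf partner, had 132.3 and 435.2, against 318.6, Bach1, the closest relative, 391.2 and 305, against 675.8, and Nfe2l2, which encodes the stress factor NRF2, 440.9 and 192.5, against 667.3. Set against each other, VILLIN-HA/CL4-TCR was lower than Villin-HA + CL4-TCR in 8 of 16 and higher in 1, Nfe2l2, where 8.95% and 6.14% of all genes were. The measured probe sets of Nfe2l2 ranged from -0.08 to 1.20 in this comparison. These values stand beside the muscle, stromal and neutrophil signals of the Villin-HA + CL4-TCR sample, whose part in them was not tested.

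Effector differentiation factors, a list that shares Prdm1, Batf and Nfil3 with the Bach2 list, were higher for 4 of 10 measured genes in the VILLIN-HA/CL4-TCR sample (median 0.80) and for 9 of 12 in the Villin-HA + CL4-TCR sample (median 1.84), and lower for none, against 7.43% and 11.9% of all genes higher. Prdm1 and Nfil3 were measured only through the Villin-HA + CL4-TCR array, so the 9 of 12 depends in part on the floor rule. Bhlhe40, a factor of activated T cells, had 237.7 and 2435.4, against 4.2, and was at least 7.50-fold and 76.8-fold higher. Irf4, a factor scaled to receptor signals, had 886.9 and 338.8, against 49.6, Ikzf2, which encodes Helios, 5756.9 and 2029.7, against 360.7, and Tbx21, which encodes T-bet, 184.1 and 257.2, against 66.5. Id2, the effector counterpart of Id3, had 1557.1 and 2621.3, against 881.2, but its measured probe sets ranged from -1.36 to 2.12, and those of Irf4 from 0.38 to 2.77, in the Villin-HA + CL4-TCR sample.

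Beside Il6ra, the other chain of the interleukin 6 receptor had, by its brightest probe set, the opposite order between the HA arrays. Il6st had 1468.2 in the VILLIN-HA/CL4-TCR and 335.6 in the Villin-HA + CL4-TCR sample, against 1549.7 in the CL4-TCR sample, or -0.08 and -2.21, although its measured probe sets ranged from -2.21 to -0.23 in the Villin-HA + CL4-TCR sample. Between the HA arrays they ranged from -0.39 to 2.13, so not all of them had that order. Socs3, an inhibitor that interleukin 6 induces, had 414.8 and 2794.5, against 3452.1, and was 3.06 lower on the log2 scale in the VILLIN-HA/CL4-TCR sample, where Il6ra was also lowest. Of the 15 measured genes of the interleukin 6 receptor and its signalling, Socs3 alone was lower and Jak2 alone higher (1.08) in the VILLIN-HA/CL4-TCR sample, shares near those of all genes, and Il6st and Il27ra, a receptor of the same family, were lower in the Villin-HA + CL4-TCR sample (-2.21 and -1.33) with none higher. Relative to Villin-HA + CL4-TCR and by the brightest probe sets, Socs3 was lower in VILLIN-HA/CL4-TCR (-2.75), and Il6st (2.13), Il27ra (1.10) and Bcl3 (1.09) were higher. Stat3, which carries the signal, and Adam10 and Adam17, proteases that shed the receptor, were within 2-fold on both arrays by their brightest probe sets. Other probe sets disagreed in the Villin-HA + CL4-TCR sample, with ranges from -0.08 to 2.41 for Stat3 and from -0.40 to 1.89 for Adam10. Those of Adam17 ranged from -0.68 to 0.40.

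**Figure D5:**
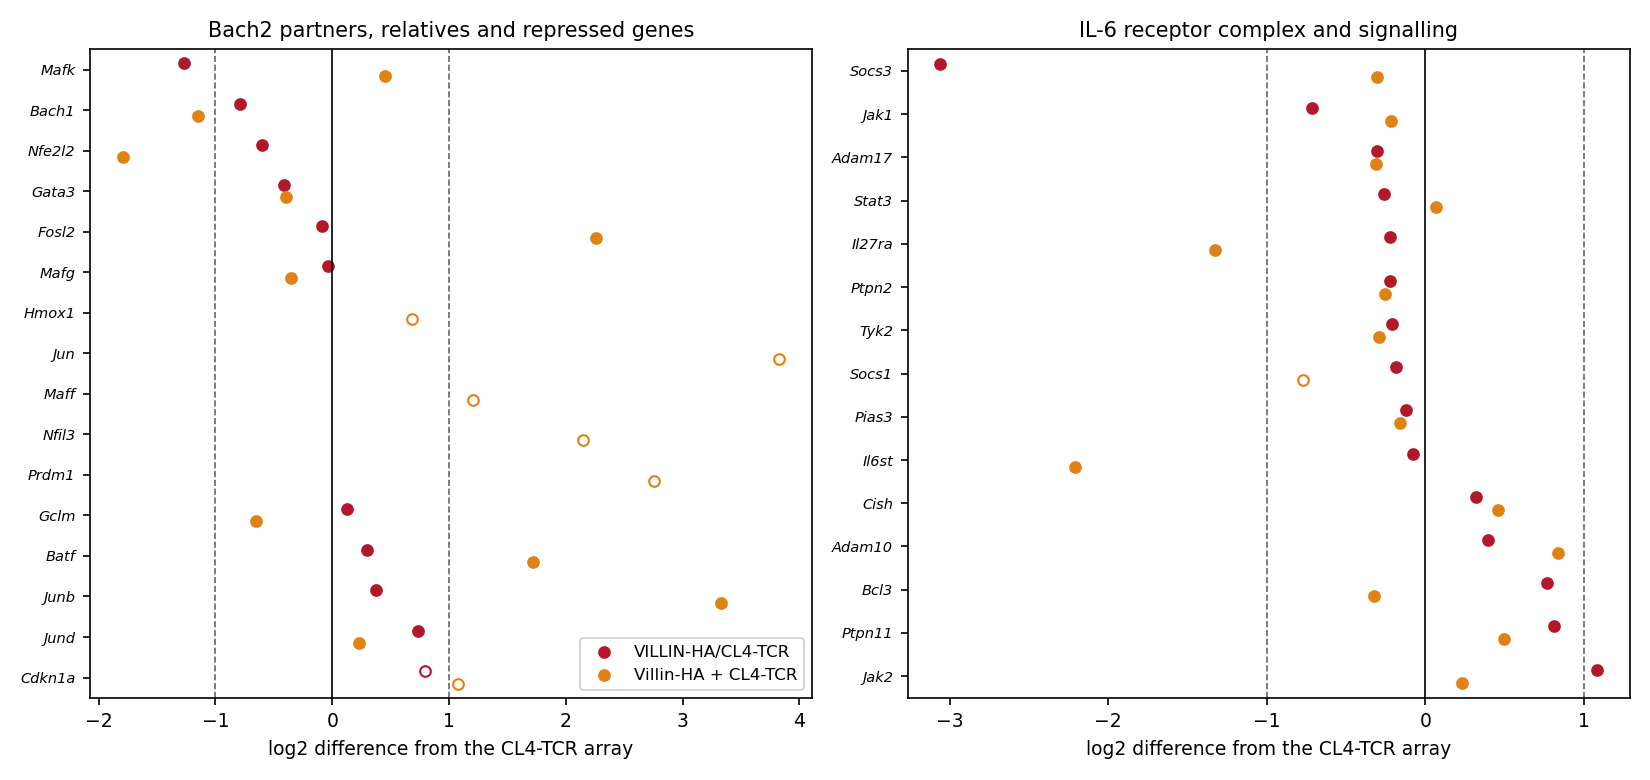
Log2 difference from the CL4-TCR sample of measured genes of the Bach2 list (left) and of the interleukin 6 receptor list (right), with VILLIN-HA/CL4-TCR in red and Villin-HA + CL4-TCR in orange, open points as lower bounds in size and dashed lines at 2-fold. Junb, Jun and Prdm1 are far right only in orange, Socs3 is far left only in red, and Il6st is far left only in orange.

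Of the insulin-like growth factor system, 16 genes were found beside Igfbp4. Of 9 measured in the VILLIN-HA/CL4-TCR sample, 2 were lower and 1 higher than in the CL4-TCR sample (median 0.11), and of 12 in the Villin-HA + CL4-TCR sample 1 was lower and 2 higher (median 0.01). Irs2, an adaptor of the insulin and growth factor receptors, had 33.1 and 66, against 120.6, and Insr, the insulin receptor gene, 153.6 and 85.1, against 280.4. Igf1r, the receptor of the ligands that Igfbp4 binds, was within 2-fold by its brightest probe set, with 128.1 and 79.7, against 103. Its measured probe sets ranged from -1.14 to 0.63 in the VILLIN-HA/CL4-TCR and from -0.37 to 0.88 in the Villin-HA + CL4-TCR sample. Igf2, one of those ligands, had 80 and 71.1, against 6.4, and was at least 2.52-fold and 2.24-fold higher. Igfbp7, a relative of Igfbp4, had 7.9 and 75.3, against 22.7, and Igf2bp3, which encodes an RNA-binding protein, 77.2 and 116.2, against 159.9. Igf2r, the receptor that clears Igf2, was higher in VILLIN-HA/CL4-TCR than in Villin-HA + CL4-TCR (1.24), with 1180.9 against 499.6.

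Among chromatin organisers listed beside Satb1, 1 of 12 measured genes was lower and 1 higher on each HA array, with medians of -0.002 and -0.07, shares near those of all genes. Ctcf, which encodes the main insulator protein, was lower in the Villin-HA + CL4-TCR sample, with 643.4 against 1787.5, and had 1098 in the VILLIN-HA/CL4-TCR sample, short of 2-fold. Smc3, a cohesin subunit, was higher in the Villin-HA + CL4-TCR sample, with 459.9 against 206.9. In the VILLIN-HA/CL4-TCR sample, Mta2, a subunit of the NuRD complex, was lower (-1.05) and Hdac1 higher (1.15), and relative to Villin-HA + CL4-TCR Mta2 was lower (-1.07) and Cux1 higher (1.20). The measured probe sets of Cux1 ranged from -0.65 to 1.37 in that comparison.

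Genes with the most similar pair of differences from the CL4-TCR sample were sought for each member among 9014 genes above the floor on all 3 arrays, by the Euclidean distance of the 2 log2 differences. With so many genes and 3 arrays a close match is easily found. For Lef1 they were Rasgrf2 and Urb1, at distances of 0.02 and 0.03, and for Satb1 Ripor2 and Gpsm3, both at 0.02. For Bach2 they were D930016D06Rik and AW209491 (0.12 and 0.15), and for Il6ra Cxcr4 and Mctp2 (0.13 and 0.14). Cxcr4, a chemokine receptor gene, had 115.2 in the VILLIN-HA/CL4-TCR and 454 in the Villin-HA + CL4-TCR sample, against 866.5 in the CL4-TCR sample. The nearest to Igfbp4, Wnt5b and Il18r1, were much farther away, at 1.14 and 1.24.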

How the data were processed

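CD8 T cell RNA of 3 samples was labelled with biotin, from 6 µg of total RNA per the labels' protocols, and hybridised to 1 array each. The deposited values are intensity values from MAS5, per the submitters' processing notes; the sources used here name no version. From these, Python 3.11.15 (pandas 2.3.3, numpy 2.4.6) was used to name probe sets through the platform annotation (34958 of 45101 with 1 symbol, 34754 of them updated by Entrez ID to RefSeq symbols), to raise values below the floor of 31.7 to it, and to take log2 differences. Each of 18194 genes was represented by its brightest probe set. Precision is limited by the number of arrays. The calculation was tested on simulated data. Named genes are the members, the 2 nearest genes of each, and list genes past 2-fold with the 4 largest of each list and comparison first, plus Klf2, S1pr1, Il7r and Ccr7. Tle3, Ctnnb1, Stat3, Adam10, Adam17, Igf1r and Jund were added after their values were seen. Members, lists and markers were chosen with earlier results of these data known. Alternatives were other floors, scalings, folds and probe set rules.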

Additional observations from a re-analysis of the deposited data

How the results depend on the processing

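Under 7 of the 8 alternatives, the 1.5-fold count changing no difference, each of the 15 differences of a member gene kept its sign, apart from Satb1 between the HA arrays, VILLIN-HA/CL4-TCR less Villin-HA + CL4-TCR, which was -0.07 instead of 0.52 with the mean of all probe sets, and 3 others crossed 2-fold. With that mean, Lef1 was lower on VILLIN-HA/CL4-TCR than on CL4-TCR (-1.44) and Satb1 on Villin-HA + CL4-TCR was not (-0.63), and with equal array medians Il6ra was lower on Villin-HA + CL4-TCR (-1.01). At 1.5-fold, 13 of 17 member probe sets and 4 of 5 member genes were lower on VILLIN-HA/CL4-TCR than on CL4-TCR, in place of 8 and 2. The background rose too: 3795 of 11260 measured genes were then counted in either direction, 48.7% of them higher. At 2-fold it was 1583 of 11260, 52.9% of them higher. With the mean of all probe sets, 4 of 26 naive genes in place of 8 were lower on VILLIN-HA/CL4-TCR than on Villin-HA + CL4-TCR. The background fell as well, to 1096 of 12152 genes counted in either direction, 31.2% of them higher. It had been 1823 of 12081, 40.7% of them higher. Over all genes, 1583 were counted between VILLIN-HA/CL4-TCR and CL4-TCR, 2385 with the lower floor and 3795 at 1.5-fold. Between Villin-HA + CL4-TCR and CL4-TCR it was 2616, with 1712 for the mean of probe sets and 5376 at 1.5-fold. Between the HA arrays it was 1823, with 1183 and 2994 for the higher and lower floor, 4490 at 1.5-fold and 1096 for the mean of probe sets. Equal medians turned the higher share of counted genes to 38.3% in place of 55.6% for Villin-HA + CL4-TCR less CL4-TCR and to 67.1% in place of 40.7% between the HA arrays, and the median difference of all genes to -0.14 and 0.19, in place of 0.06 and -0.06. No paired analysis was possible because each group has 1 array. Signals near the floor, as for Il6ra on VILLIN-HA/CL4-TCR, limit what can be read: with the higher floor its difference from CL4-TCR was -1.88 in place of -2.91. The cause of these changes was not tested.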
